A study of Mus musculus with 8 samples.

Results

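The 10 genes described here belong to the antioxidant program of the transcription factor NRF2. They were chosen by symbol, with earlier results of these data known, and all 10 were found among the 53819 gene rows of the count table. They comprised the regulators *Nfe2l2* and *Keap1*, the NADPH genes *Nqo1* and *G6pdx*, the glutathione genes *Gclc*, *Gclm* and *Slc7a11*, and the thioredoxin genes *Txnrd1*, *Srxn1* and *Prdx1*. RNA was sequenced from bone marrow-derived macrophages (BMDM), which are bone marrow cells grown into macrophages with macrophage colony-stimulating factor (M-CSF). The marrow came from 4 female Balb/CJ mice aged 8 weeks, and cells were differentiated for 5 days with M-CSF at 25 ng/mL. Each mouse gave 1 culture treated for 48 h with 2.5 µM bilirubin, the end product of heme breakdown, and 1 vehicle culture that received DMSO. Only this dose and time were sequenced, so each group holds 4 cultures, and the same 4 mice stand in both groups.

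NRF2, the protein encoded by *Nfe2l2*, is held in the cytoplasm by KEAP1, which directs it to degradation until electrophiles or oxidants modify KEAP1 cysteines. Much of this control acts on the NRF2 protein, which RNA does not measure. Once in the nucleus, NRF2 pairs with small MAF proteins and binds antioxidant response elements near genes that make NADPH, synthesize glutathione and reduce thioredoxin. NADPH is the shared source of electrons, since glutathione reductase and thioredoxin reductase both use it. In macrophages these systems buffer the oxidants of the respiratory burst and limit inflammatory gene expression.

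The promoters of the 10 genes were searched for the core letters of the antioxidant response element, TGACNNNGC, to show which members carry this sequence close to the start. Both strands of the 1000 bases before the start of the canonical transcript were searched in GRCm39. Of the 10 members, 5 held the core, in 6 sites, compared with 29.5% of the 13682 promoters of tested genes that could be searched. The sites are printed 5′ to 3′ on the strand that reads the core, with the core in capitals and 10 bases on either side.
*Nfe2l2*, chr2:75535229-75535257, minus strand: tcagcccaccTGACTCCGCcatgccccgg
*Gclm*, chr3:122039062-122039090, minus strand: tcgtgagagtTGACGGTGCgcccgggagc
*Slc7a11*, chr3:50398915-50398943, plus strand: aggaaggagaTGACAGGGCatattttttg
*Txnrd1*, distal, chr10:82694632-82694660, minus strand: gcactggctgTGACCCTGCcaaatagttg
*Txnrd1*, proximal, chr10:82694938-82694966, minus strand: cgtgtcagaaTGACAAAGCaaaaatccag
*Prdx1*, chr4:116542653-116542681, minus strand: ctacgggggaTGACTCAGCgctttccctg
The core lay 45 bases before the canonical start of *Gclm*, 56 and 362 bases before that of *Txnrd1*, 69 before that of *Prdx1*, 253 before that of *Nfe2l2* and 861 before that of *Slc7a11*. In vehicle cultures the canonical transcript held 22.3% of the transcript abundance of *Prdx1* and 45.6% of that of *Txnrd1*. That of *Gclm* was not among the main transcripts given below. The *Prdx1* site, TGACTCAGC, also contains TGACTCA, the letters bound by AP-1, and this longer match was present in 1.33% of the searched promoters. The windows of *Keap1*, *Nqo1*, *G6pdx*, *Gclc* and *Srxn1* did not contain the core, which says nothing of sites farther away. Of the members that rose with bilirubin, described next, 3 of 6 held the core (*Nfe2l2*, *Slc7a11* and *Prdx1*), as did 2 of the 4 that did not pass (*Gclm* and *Txnrd1*). These matches describe letters and do not show binding.

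The gene counts of a library summed to between 34142766 and 47071686 (median 40742183), and both extremes came from mouse 1 (bilirubin the lowest, vehicle the highest). Mitochondrial genes took 3.05% to 3.59% of the counts. All 10 macrophage markers passed the filter on low counts, and their summed level was 24350 to 24619 CPM (counts scaled for library size) in vehicle and 28674 to 30795 in bilirubin cultures. Most of this rise came from *Lyz2* (mean 19145 to 24369 CPM), and the markers did not move together. *Adgre1*, *Itgam*, *Lyz2* and *Cd14* were called higher, while *Cd68* and *Mertk* were lower in all 4 mice without passing the test (log2 changes of -0.16 and -0.15). *Csf1r*, *Fcgr1*, *C1qa* and *Mrc1* did not pass either, and their log2 changes in mouse 1 were 0.26, 0.40, 0.70 and 0.35. In mice 2 to 4 they ran from -0.15 to -0.02, -0.59 to -0.26, -0.96 to 0.05 and -0.83 to -0.33. Of 10 neutrophil markers, 3 passed the filter, *Retnlg* had no counts in any library, and *Ly6g* had 3 counts in 1 library and 0 in the others. Their summed level was 11.5 to 14.2 CPM in vehicle and 20.2 to 32.8 CPM in bilirubin cultures, mostly from *S100a8*, whose mean rose from 11.5 to 24.4 CPM. Summed dendritic cell markers, none of which passed the filter, were at 0.0235 to 0.159 CPM in vehicle and between 0.194 and 0.647 CPM in bilirubin cultures. The highest sum in any library was 0.547 CPM for B cells, 0.166 for T and NK cells, 0.722 for mast cells and basophils, 0.249 for erythroid cells and 7.24 for stromal and endothelial cells. The part of these shifts in the results below was not tested. In bulk RNA a change in the share of cells of a type and a change in RNA per cell cannot be told apart.

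Bilirubin treatment was followed by higher RNA for 6 of the 10 genes, with at least 1 from each arm. *Nqo1* and *Slc7a11* showed the largest fitted changes of the 10, 1.98-fold and 1.92-fold, followed by *Prdx1* at 1.53-fold, *Srxn1* at 1.33-fold, *G6pdx* at 1.19-fold and *Nfe2l2* at 1.14-fold. *Keap1*, *Gclc*, *Gclm* and *Txnrd1* did not pass the test. Counts were scaled by TMM and compared within mouse by the quasi-likelihood test of edgeR at a threshold of 0.05, and p-values were adjusted over all 13722 tested genes (Benjamini-Hochberg). Over all tested genes 616 were higher and 417 lower with bilirubin, or 7.53% in either direction (4.49% higher and 3.04% lower), which is the background for the 6 of 10 that were higher. Because the members were chosen with earlier results of these data known, their distance from this background is a description only. With scaling by library size alone the split was 527 higher and 556 lower, and 5 members were called, all higher. By arm the called genes were 1 of 2 regulators, 2 of 2 NADPH genes, 1 of 3 glutathione genes and 2 of 3 thioredoxin genes. Differences between these small arms were not tested, and the counts moved with the processing, to 3 of 3 thioredoxin genes without mouse 1 and to 0 of 3 glutathione and 1 of 3 thioredoxin genes with an offset for transcript length. The median log2 fold change of the 10 genes was 0.22, against -0.0018 over all tested genes. Each member had between 937 and 98938 counts in every library.

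**Figure D1:**
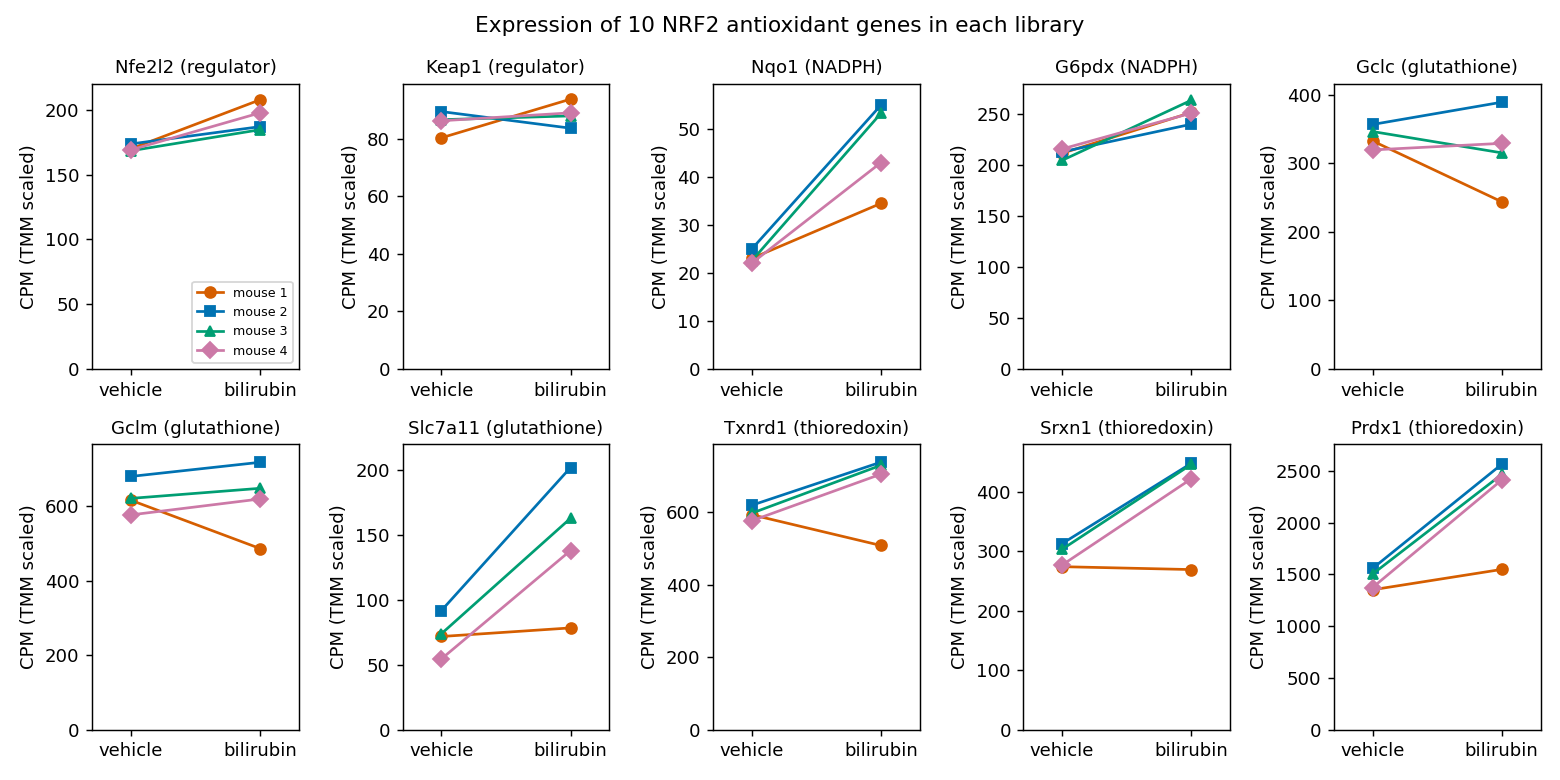
Level of each of the 10 genes in every library, in CPM after TMM scaling, with vehicle and bilirubin on the horizontal axis and 1 line joining the cultures of each mouse; every vertical axis starts at 0. The 4 bilirubin cultures lie above the 4 vehicle cultures for *Nfe2l2*, *Nqo1* and *G6pdx*, and the line of mouse 1 slopes down for *Gclc*, *Gclm*, *Txnrd1* and *Srxn1*.

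On a scale that allows genes to be compared, TPM (transcript abundance scaled for length and depth), the 10 genes ranged widely in vehicle cultures. *Prdx1* had the highest level, 2394 ± 146 TPM (SD, n = 4), rank 44 of all genes by vehicle TPM, followed by *Gclm* at 997 ± 52.3 TPM. *Txnrd1* was at 353 ± 9.95 TPM, *Srxn1* at 176 ± 8.17 TPM and *Gclc* at 162 ± 7.19 TPM. The ranges of *Srxn1* and *Gclc* over vehicle cultures overlapped, at 169 to 186 and 153 to 170.0 TPM, but *Srxn1* was the higher of the pair in each of these libraries. *G6pdx* at 134 ± 3.64 TPM and *Nfe2l2* at 116 ± 1.55 TPM came next. The least abundant were *Keap1* at 45.1 ± 1.38 TPM, *Nqo1* at 26.04 ± 1.43 TPM and *Slc7a11* at 15.1 ± 3.24 TPM, so both genes with the largest changes were the least abundant of the set. With bilirubin, *Nqo1* reached 50.4 ± 9.46 TPM, overlapping *Keap1* at 44.9 ± 3.67 TPM, and *Slc7a11* reached 27.4 ± 9.59 TPM.

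Among the regulators, the RNA for NRF2 itself rose slightly while that for its inhibitor did not pass the test. *Nfe2l2* (chr2:75504739-75534985) was measured at 170.0, 174, 169 and 169 CPM in the vehicle cultures of mice 1 to 4 and at 208, 187, 185 and 198 CPM in their bilirubin cultures. All bilirubin cultures were above all vehicle cultures, a pattern found for 5.93% of tested genes, and mouse 1 had the highest level. Bilirubin over vehicle the log2 change was 0.19 (standard error 0.04, edgeR, adjusted p = 0.0262). This call was lost without mouse 2, 3 or 4 (edgeR, adjusted p = 0.0551, 0.112 and 0.163), with scaling by library size alone and with an offset for transcript length, within a range from 0.00108 to 0.163 over 13 alternatives. *Keap1* (chr9:21141026-21150679), the adaptor that marks NRF2 for degradation, was at 80.3 to 89.4 CPM in vehicle and 83.7 to 93.7 CPM in bilirubin cultures. These groups overlapped, with a log2 change of 0.22 in mouse 1 and of -0.10 in mouse 2. The fitted log2 change of *Keap1* was 0.05, with a 95% interval from -0.07 to 0.17 (edgeR, adjusted p = 0.673).

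Both NADPH genes rose, and both were higher with bilirubin in every mouse. *Nqo1* (chr8:108113835-108129934) encodes a quinone reductase that spends NADPH or NADH and is widely used as a readout of NRF2 activity. It was at 23.0, 25.0, 22.5 and 22.03 CPM in vehicle cultures and at 34.5, 54.98, 53.3 and 43.0 CPM in bilirubin cultures. The groups did not overlap, and the smallest bilirubin value was that of mouse 1. The log2 fold change was 0.98 (standard error 0.10, edgeR, adjusted p = 0.000699), and it passed the threshold in all 13 alternatives, where it ranged from 0.90 to 1.11. *G6pdx* (chrX:73449857-73472819) encodes glucose-6-phosphate dehydrogenase, which makes NADPH in the first step of the pentose phosphate pathway. Its level was 212, 213, 205 and 216 CPM in vehicle cultures and 252, 240.0, 264 and 251 CPM in bilirubin cultures. Here too the groups did not overlap, and mouse 1 lay among the others rather than below them. The log2 fold change of *G6pdx* was 0.25 (standard error 0.04, edgeR, adjusted p = 0.00612). It passed in 12 of 13 alternatives, the exception being the fit without mouse 3 (edgeR, adjusted p = 0.0557, within a range from 2.21e-06 to 0.0557). *G6pdx* shares 526 exon bases with *Ikbkg* on the opposite strand, which had 3168 to 5791 counts per library, and whether strand was used in counting is not given in the sources used here. Its near-identical copy *G6pd2* had 3.001 to 7.004 counts per library.

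In the glutathione arm, the gene for cystine import rose while those for the 2 subunits of the synthetic enzyme did not pass the test. *Slc7a11* (chr3:49846975-50398070) encodes xCT, the transporter that exchanges glutamate for the cystine from which glutathione is built. It was at 71.8, 91.7, 73.8 and 54.5 CPM in vehicle cultures and at 78.4, 202, 163 and 138 CPM in bilirubin cultures. The 3 bilirubin cultures of mice 2 to 4 were above every vehicle culture, while that of mouse 1 lay within the vehicle range. The log2 fold change was 0.94 (standard error 0.17, edgeR, adjusted p = 0.0123), made up of 0.13 in mouse 1 and 1.14, 1.14 and 1.34 in mice 2 to 4. Without mouse 1 the change was 1.202 (edgeR, adjusted p = 6.07e-08). The call was lost when mouse 2, 3 or 4 was left out (edgeR, adjusted p = 0.0739, 0.120 and 0.0762) and with an offset for transcript length (0.0603), within a range from 7.63e-21 to 0.120 over 13 alternatives.

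*Gclc* (chr9:77661797-77701770) encodes the catalytic subunit of glutamate-cysteine ligase, the rate-limiting enzyme of glutathione synthesis. It was at 333, 357, 346 and 319 CPM in vehicle cultures and at 244, 389, 315 and 329 CPM in bilirubin cultures. The value of mouse 1 was the lowest of all 8 libraries, and the other bilirubin cultures lay above, below and within the vehicle range. *Gclm* (chr3:122039126-122065061) encodes the modifier subunit, which lowers the enzyme's need for glutamate and its inhibition by glutathione. Its level was 615, 679, 620.4 and 576 CPM in vehicle cultures and 486, 717, 647 and 619 CPM in bilirubin cultures, again with mouse 1 the lowest of the 8. The fitted log2 changes were -0.10 for *Gclc*, with a 95% interval from -0.29 to 0.09, and -0.02 for *Gclm*, with an interval from -0.19 to 0.14 (edgeR, adjusted p = 0.555 and 0.900). Without mouse 1 both turned positive, to 0.01 and 0.08, and neither passed in any of 13 alternatives. *Gclm* shares 492 exon bases with *Gm6061* on the same strand, which had 58.2 to 108 counts per library.

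In the thioredoxin arm, the genes for peroxiredoxin and the enzyme that repairs it rose, and that for thioredoxin reductase did not pass over all mice. *Prdx1* (chr4:116532123-116558398) encodes a peroxiredoxin that reduces hydrogen peroxide with electrons from thioredoxin. It was at 1352, 1558, 1504 and 1374 CPM in vehicle cultures and at 1549, 2565, 2466 and 2413 CPM in bilirubin cultures. The bilirubin culture of mouse 1 lay below the highest vehicle culture, and the others lay above all vehicle cultures. The log2 fold change was 0.61 (standard error 0.09, edgeR, adjusted p = 0.00455), and it passed in 12 of 13 alternatives, with the exception of the fit without mouse 3 (0.0599, within a range from 9.65e-23 to 0.0599). *Prdx1-ps*, a pseudogene copy, had at most 1.00 count in a library.

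*Srxn1* (chr2:151947436-151957687) encodes sulfiredoxin, which returns over-oxidized peroxiredoxin to use. Its level was 274, 313, 303 and 277 CPM in vehicle cultures and 269, 448, 446 and 421 CPM in bilirubin cultures. The bilirubin cultures of mice 2 to 4 were above every vehicle culture, and that of mouse 1 was the lowest of the 8 libraries. The log2 fold change was 0.42 (standard error 0.09, edgeR, adjusted p = 0.0343), and 0.56 without mouse 1 (edgeR, adjusted p = 1.33e-06). The call was lost in 6 of 13 alternatives, namely leaving out mouse 2, 3 or 4 (edgeR, adjusted p = 0.154, 0.222 and 0.186), DESeq2 (0.0587), treatment without the mouse in the model (0.0928) and an offset for transcript length (0.0865), and the adjusted p ranged from 2.9e-11 to 0.222.

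*Txnrd1* (chr10:82669785-82733546) encodes the cytosolic reductase that passes electrons from NADPH to thioredoxin. It was at 593, 619, 597 and 576 CPM in vehicle cultures and at 508, 737, 729 and 704 CPM in bilirubin cultures. The bilirubin cultures of mice 2 to 4 were above every vehicle culture and that of mouse 1 was below every vehicle culture. Over all mice the log2 fold change was 0.15, with a 95% interval from -0.03 to 0.34 (edgeR, adjusted p = 0.345). Without mouse 1 it was 0.28 and passed the threshold (edgeR, adjusted p = 0.00011), as it did without a filter on low counts, and over 13 alternatives the adjusted p ranged from 0.00011 to 0.738.

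**Figure D2:**
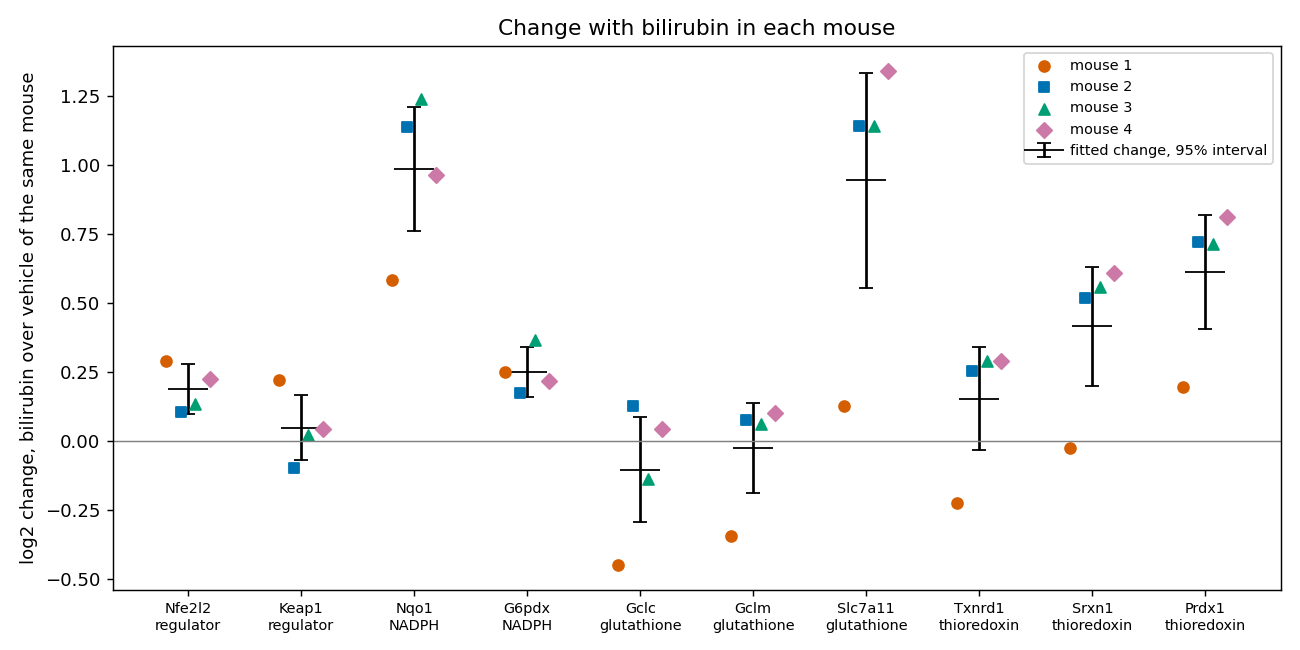
Change with bilirubin in each mouse for the 10 genes, as log2 of bilirubin over vehicle of the same mouse, with the fitted change (horizontal bar) and its 95% interval (vertical bar). The circle of mouse 1 is the lowest of the 4 for 7 of the 10 genes, and the highest for *Nfe2l2* and *Keap1*.

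Mouse 1 stood apart, and by different amounts in the arms. Its mean log2 change was 0.26 for the regulators, 0.42 for the NADPH genes, -0.22 for the glutathione genes and -0.02 for the thioredoxin genes. In mice 2, 3 and 4 the regulators changed by 0.01, 0.08 and 0.14, the NADPH genes by 0.65, 0.80 and 0.59, the glutathione genes by 0.45, 0.36 and 0.50, and the thioredoxin genes by 0.50, 0.52 and 0.57. The arm of NADPH genes was thus the only one of these 3 enzyme arms with a positive mean in every mouse. In mice 2 to 4 the glutathione means came mostly from *Slc7a11* (1.14, 1.14 and 1.34), and the median of that arm was 0.13, 0.06 and 0.10. The median of the thioredoxin arm in these mice was 0.52, 0.56 and 0.61. For 7 of the 10 genes mouse 1 had the lowest signed log2 change of the 4 mice, against 32.5% of all tested genes. For *Gclc* and *Gclm* this was a fall, with log2 changes of -0.45 and -0.34, larger in size than in any other mouse. *Gclm*, *Txnrd1* and *Srxn1* were lower with bilirubin in mouse 1 and higher in the other mice, as were 8.9% of tested genes, and 5 members were higher in all 4 mice, as were 14.5% of tested genes. With mouse 1 left out 7 of 10 members were called, against 13.9% of all tested genes. With mouse 2, 3 or 4 left out 3, 1 and 3 members were called, against 4.58%, 2.75% and 3.21% of tested genes. The member that passed without mouse 3 was *Nqo1*. The bilirubin library of mouse 1 had the lowest total count. Mouse 1 was also the only mouse in which the macrophage markers *Csf1r*, *Fcgr1* and *Mrc1* were higher with bilirubin. The part of depth or of the state of the cells in this difference was not tested.

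Ratios between partner genes in the same library asked whether the members of a step moved together. In every mouse, mouse 1 included, *Slc7a11* was higher against *Gclc* and *Nqo1* against *G6pdx* with bilirubin than with vehicle, and *Keap1* was lower against *Nfe2l2* and *Srxn1* against *Prdx1*. The TPM ratio of *Slc7a11* to *Gclc* was 0.0929 ± 0.0163 in vehicle and 0.182 ± 0.0439 in bilirubin cultures (SD, n = 4), with log2 changes of 0.42, 0.86, 1.42 and 1.12 in mice 1 to 4. In mouse 1 the higher ratio came from a lower *Gclc*, at 162 TPM in vehicle and 119 in bilirubin. *Slc7a11* itself was at 15.3 and 15.1 TPM there. The ratio of *Nqo1* to *G6pdx* was 0.194 ± 0.0110 and 0.327 ± 0.0679, with log2 changes of 0.33, 0.96, 0.88 and 0.76. The ratio of *Keap1* to *Nfe2l2* was 0.389 ± 0.0136 and 0.351 ± 0.0107, with log2 changes of -0.09, -0.20, -0.13 and -0.18. The ratio of *Srxn1* to *Prdx1* was 0.0736 ± 0.00137 and 0.0630 ± 0.00169, with log2 changes of -0.26, -0.23, -0.13 and -0.27. In this last ratio mouse 1 lay among the other mice, although its bilirubin levels of both genes were the lowest of the 4.

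The ratio of the subunits of glutamate-cysteine ligase, *Gclm* to *Gclc*, was 6.14 ± 0.0991 in vehicle and 6.58 ± 0.541 in bilirubin cultures (SD, n = 4). It was higher with bilirubin in 3 of 4 mice, with a mean log2 change of 0.10 ± 0.13 (exact two-sided sign-flip permutation test, p = 0.375). The other 4 ratios changed the same way in 4 of 4 mice, and each gave p = 0.125 in the same exact test, the smallest p that this test allows with 4 mice, so it cannot reach the 0.05 threshold. With Benjamini-Hochberg adjustment over the 5 ratios these exact p-values became 0.156.

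**Figure D3:**
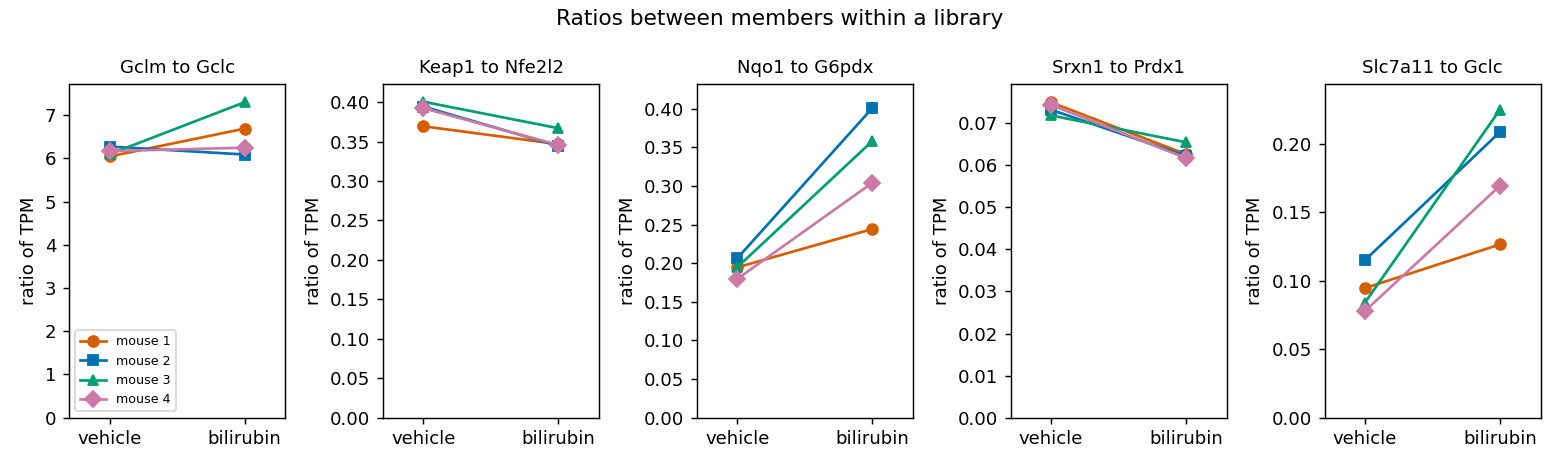
Ratio of the TPM of partner genes in each library, with vehicle and bilirubin on the horizontal axis and 1 line per mouse; every vertical axis starts at 0. The lines for *Keap1* to *Nfe2l2* and *Srxn1* to *Prdx1* slope down in all 4 mice, those for *Nqo1* to *G6pdx* and *Slc7a11* to *Gclc* slope up in all 4, and those for *Gclm* to *Gclc* slope up in 3.

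The transcripts that carried each gene are given as shares of its TPM, with no test. *Nqo1* was carried by a single transcript, and 1 transcript held 97.2% to 99.8% of the vehicle TPM of *Nfe2l2*, *G6pdx*, *Gclc* and *Srxn1*. *Txnrd1* was split between 2 transcripts, at 45.6% and 49.9% in vehicle and 45.9% and 49.9% in bilirubin cultures. *Prdx1* was split among 3, at 46.4%, 28.2% and 22.3% in vehicle and 45.9%, 29.1% and 21.96% in bilirubin cultures. *Gclm* was carried by 4 transcripts, at 39.1%, 27.5%, 19.9% and 7.91% in vehicle cultures, none of them the canonical transcript whose start was used for the promoter search. In *Slc7a11* a transcript of 481 bases held 10.4% ± 6.26 (SD, n = 4) of its vehicle TPM, with a range from 1.95% to 17.1%, and 0.724% ± 0.979 of its bilirubin TPM. This short transcript adds to TPM more than to counts, and in mouse 1 the TPM of *Slc7a11* was 15.3 in vehicle and 15.1 in bilirubin although its CPM was higher with bilirubin. Its main transcript, of 9223 bases, went from 12.3 to 13.4 TPM in mouse 1, from 15 to 31.6 in mouse 2, from 12.3 to 25.3 in mouse 3 and from 8.91 to 21.3 in mouse 4.

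Around the 10 members, 134 further genes of the same systems were read from 8 hand-written lists, also chosen with earlier results of these data known. Of these 118 were tested, 22 were higher with bilirubin and 3 were lower, against 4.49% and 3.04% of all tested genes. In the glutathione list, 6 of 28 tested genes rose and 1 fell, and those that rose act in conjugation, export, peroxide removal and reduction. The glutathione transferases *Mgst2* and *Gsta3* rose by 0.73 and 0.54 on the log2 scale (edgeR, adjusted p = 0.00184 and 0.00192), and *Abcc1*, which exports glutathione conjugates, rose by 0.40 (0.00249). The glutathione peroxidase *Gpx1* rose by 0.23 (edgeR, adjusted p = 0.00395), glutaredoxin *Glrx* by 0.35 (0.0188) and glutathione reductase *Gsr*, which uses NADPH, by 0.19 (0.0298). *Gpx3*, the secreted glutathione peroxidase, fell by 0.87 (edgeR, adjusted p = 0.0156), from 20.8 ± 4.02 to 12.1 ± 6.35 CPM (SD, n = 4). Its log2 change was -0.16 in mouse 1 and -1.26 to -1.01 in the others. The calls of *Gpx3*, *Glrx* and *Gsr* were lost when mouse 2, 3 or 4 was left out (edgeR, adjusted p = 0.0752 to 0.126, 0.0858 to 0.153 and 0.0951 to 0.197). Without the mouse in the model the calls of *Mgst2*, *Gpx3* and *Gsr* were lost (edgeR, adjusted p = 0.0679, 0.160 and 0.0532), and that of *Gsr* was also lost with an offset for transcript length (0.144). The median of the list was -0.03, and 6 of its genes were higher and 5 lower in all 4 mice. The transferases *Gstm5*, *Gstk1* and *Mgst3* were among the lower ones without passing the test (log2 changes of -0.25, -0.29 and -0.24).

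Of 16 tested thioredoxin genes, 2 rose, and the median was 0.04. The mitochondrial and peroxisomal peroxiredoxin *Prdx5* rose by 0.45 on the log2 scale in the fit, from 153 ± 3.54 to 209 ± 14.7 CPM (SD, n = 4; edgeR, adjusted p = 0.00105), with every bilirubin culture above every vehicle culture. Thioredoxin itself, *Txn1*, rose by 0.36 (edgeR, adjusted p = 0.00251), with changes of 0.18 in mouse 1 and 0.40 to 0.43 in the others. *Txnip*, which binds and inhibits thioredoxin, had a log2 change of -0.03 with a 95% interval from -0.12 to 0.05 (edgeR, adjusted p = 0.708).

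Of 18 tested genes of NADPH supply, 2 rose, and the median was 0.11. NAD kinase, *Nadk*, which makes NADP from NAD, was at 121 to 122 CPM in vehicle cultures and at 189, 163, 214 and 208 CPM in the bilirubin cultures of mice 1 to 4. The groups did not overlap, mouse 1 was not the lowest, and the log2 fold change was 0.66 (edgeR, adjusted p = 0.000514). Transaldolase, *Taldo1*, of the pentose phosphate pathway, rose by 0.20 (edgeR, adjusted p = 0.0489), a call lost when mouse 2, 3 or 4 was left out (0.203, 0.214 and 0.254), without the mouse in the model (0.117) or with a length offset (0.0921), within a range from 5.13e-05 to 0.254 over 13 alternatives.

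Of 20 other NRF2 targets, 6 rose, and the median was 0.13. They were biliverdin reductase B (*Blvrb*, log2 fold change 0.35), the UDP-glucose dehydrogenase *Ugdh* (0.32), the epoxide hydrolase *Ephx1* (0.33) and the reductases *Akr1b8* (0.32), *Ptgr1* (0.49) and *Cbr3* (0.25), with adjusted p-values by edgeR of 0.00122, 0.00475, 0.0114, 0.0128, 0.0216 and 0.0267. The calls of *Akr1b8*, *Ptgr1* and *Cbr3* were lost when mouse 2, 3 or 4 was left out (edgeR, adjusted p = 0.0747 to 0.121, 0.112 to 0.164 and 0.131 to 0.189), that of *Ephx1* without mouse 3 or 4 (0.0998 and 0.0662) and that of *Ugdh* without mouse 3 (0.0506). Without the mouse in the model those of *Ptgr1* and *Cbr3* were lost (edgeR, adjusted p = 0.106 and 0.0601), and with a length offset those of *Cbr3* and *Ephx1* (0.0853 and 0.0715). *Hmox1*, which encodes the heme oxygenase that makes the precursor of bilirubin, did not pass the test. It was at 2029, 2494, 2340.4 and 1848 CPM in vehicle cultures and at 1019.6, 3003, 2051 and 2065 CPM in bilirubin cultures. Its bilirubin value in mouse 1 was the lowest of the 8 libraries and that in mouse 2 the highest, and the fitted log2 change was -0.18 (edgeR, adjusted p = 0.634), or 0.08 without mouse 1. Of these 20 genes 15 had their lowest signed log2 change in mouse 1, against the 32.5% of all tested genes given above. In mouse 1, 7 were lower with bilirubin while higher in the other mice, against 8.9%.

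Some genes for enzymes that make or remove oxidants outside these arms also rose. Superoxide dismutase 2 (*Sod2*), the mitochondrial enzyme, was at 81.0 to 86.0 CPM in vehicle cultures and at 151, 147, 231 and 204 CPM in the bilirubin cultures of mice 1 to 4, a log2 fold change of 1.11 (edgeR, adjusted p = 0.000604). It was 1 of 3 tested superoxide and peroxide enzymes to pass. Of 9 tested NADPH oxidase genes, 5 rose, led by *Cybb*, the catalytic subunit of the phagocyte oxidase. *Cybc1* and *Ncf1* went the other way, lower in all 4 mice without passing the test (log2 changes of -0.15 and -0.10). For *Cybc1* every bilirubin culture was below every vehicle culture. *Cybb* was at 570.3, 563, 544 and 582 CPM in vehicle cultures and at 1148, 910.4, 1113 and 1038 CPM in bilirubin cultures, a log2 fold change of 0.89 (edgeR, adjusted p = 8.38e-05). The oxidase subunits *Ncf4*, *Cyba* and *Rac2* rose by 0.38, 0.20 and 0.18 (edgeR, adjusted p = 0.00139, 0.0107 and 0.0137), and each had all bilirubin cultures above all vehicle cultures. The call of *Rac2* was lost when mouse 2, 3 or 4 was left out (edgeR, adjusted p = 0.0610 to 0.124) and with an offset for transcript length (0.266), where its log2 change was 0.10, and that of *Cyba* without mouse 3 or 4 (0.0973 and 0.0958). Of these 9 genes, 1 had its lowest signed log2 change in mouse 1.

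Of 14 other tested regulators of the pathway, 1 passed, the stress-induced *Sesn2*, which fell by 0.29 on the log2 scale (edgeR, adjusted p = 0.0302), and the median was -0.04. This share is near the 7.53% of all tested genes, as is the 1 of 10 in the next list. *Slc7a11* is also a target of the amino acid response factor ATF4, so 10 tested genes of that response were read beside it. Any part of ATF4 in the rise of *Slc7a11* was not tested. The serine synthesis gene *Psat1* fell by 0.17 (edgeR, adjusted p = 0.0453), the other 9 did not pass, and the median was -0.13. Both of these calls were lost when mouse 2, 3 or 4 was left out (edgeR, adjusted p = 0.0581, 0.136 and 0.165 for *Sesn2* and 0.136, 0.139 and 0.190 for *Psat1*), without the mouse in the model (0.309 and 0.215) and with a length offset (0.0833 and 0.103), that of *Psat1* also with DESeq2 (0.0687), and over 13 alternatives the adjusted p ranged from 0.00264 to 0.309 and from 0.0174 to 0.215.

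**Figure D4:**
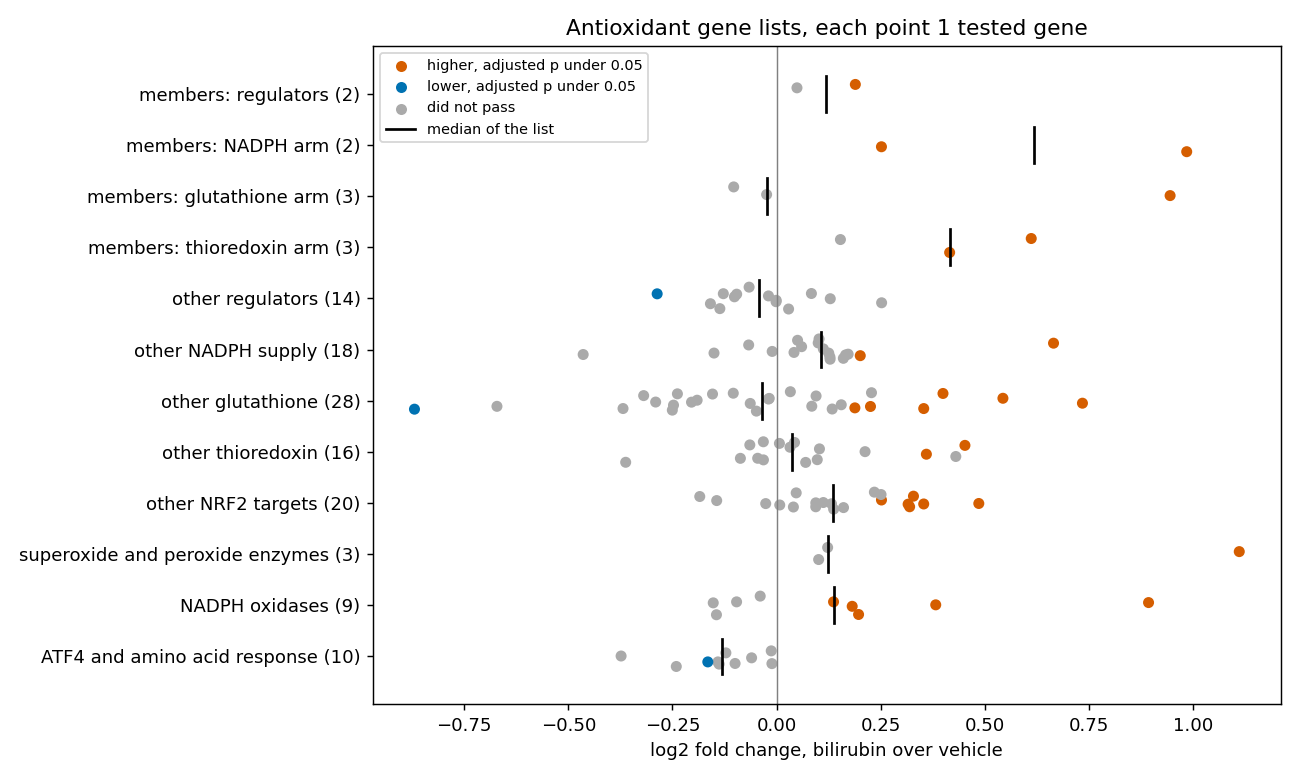
Fitted log2 fold change, bilirubin over vehicle, of each tested gene in the arms of the 10 members and in the 8 further lists, with the number of tested genes in parentheses and the median as a vertical bar. Colored points passed the adjusted p of 0.05 and grey points did not. The medians of the further lists lie between -0.13 and 0.14. Those of the members are 0.12 (regulators), 0.62 (NADPH, 2 genes), -0.02 (glutathione) and 0.42 (thioredoxin).

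The genes whose levels followed a member most closely across the 8 libraries are given as a description, by Pearson's r of log2 CPM, since all points share the libraries, the mice and the treatment. For *Nqo1* they were *Adh7*, a retinol and alcohol dehydrogenase (r = 0.985), *Abcc1* (0.983) and *Ugt1a7c*, a glucuronosyltransferase (0.983), and *Adh7* had a log2 fold change of 2.06 (edgeR, adjusted p = 0.000398). For *G6pdx* they were *Fas* (r = 0.992), *Rnd3* (0.992) and *Birc3* (0.991), which encode a death receptor, a small GTPase and an inhibitor of apoptosis and had log2 changes of 0.81, 0.80 and 0.75 in mouse 1. For *Slc7a11* they included *Ecm1* (r = 0.989) and *Myof* (0.987), and for *Srxn1* they were *AW554918* (0.992), *Clec4d* (0.990) and the NRF2 target *Ptgr1* (0.990). In mouse 1 the log2 changes of these 5 genes ran from -0.04 for *Clec4d* to 0.11 for *Ecm1*. These genes were picked by their correlation over the same libraries, mouse 1 included. That their mouse 1 values follow those of the member comes from this choice and is no separate result.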

How the data were processed

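Raw reads were trimmed with Trim Galore 0.6.7 and cutadapt 3.4, aligned with STAR 2.7.9a to GRCm39 and quantified with Salmon 1.10.1, per the submitters' processing notes. The authors deposited a gene table of estimated counts, with no scaling for depth, and a table per library of estimated counts and TPM by transcript, in which TPM is scaled for transcript length and depth by Salmon. The estimated counts were rounded and tested with edgeR 4.0.16 in R 4.3.3, with mouse and treatment in the model as in the study's own model, TMM scaling, filterByExpr (at least 10 counts, 15 in total) and Benjamini-Hochberg adjustment over 13722 genes at a threshold of 0.05. Standard errors and 95% intervals were derived from each gene's fold change and F statistic. CPM is TMM-scaled, log2 CPM used a prior count of 2, and each mouse's change is the difference of its log2 CPM. Ratios used gene TPM summed over transcripts and an exact two-sided sign-flip test.

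The pairing comes from the titles and the mouse label, since each mouse gave both cultures. Deviations of the cultures of mice 1 to 4 from their group means correlated at 0.108, 0.134, 0.108 and -0.0053 across genes. Gene positions came from GENCODE annotation of GRCm39. Alternatives were no mouse in the model, DESeq2 1.42.0, limma 3.58.1 (voom and trend), DESeq2's size factors, library size alone, no filter, a CPM above 1 in 4 samples, a transcript length offset and each mouse left out. The 10 genes and the lists were chosen with earlier results of these data known. Named genes were the members, up to 6 called genes per list by smallest adjusted p, *Hmox1*, *Txn1*, *Gsr*, *Sod2*, *Cybb* and *Txnip*. Also named were the 3 genes closest to *Nqo1*, *G6pdx*, *Slc7a11* and *Srxn1* (mean log2 CPM of at least 1), and near-identical copies. *Ikbkg*, *Gm6061*, *Cybc1*, *Ncf1*, *Gstm5*, *Gstk1*, *Mgst3* and the cell type markers were named after their values were seen. The test was checked on simulated data with a single size of change and no mouse effect. That check does not cover small changes or a mouse that stands apart. Depth gave each member at least 937 counts per library. Raw reads were not analysed here, and the results of 2 further genes that the rule names are not reported here.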

Additional observations from a re-analysis of the deposited data

Results flagged for a closer look

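In 15 of 116 sets of 4 values, 1 sample lay far from the other 3 (Dixon's test at the 95% level, which chance passes in about 1 set in 20), and 14 of the 15 were the bilirubin culture or the change of mouse 1. The sets share libraries and are not independent.

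Among the members, the log2 change of mouse 1 was -0.34 for *Gclm* (others 0.06 to 0.10), 0.13 for *Slc7a11* (1.14 to 1.34), -0.22 for *Txnrd1* (0.25 to 0.29), -0.0258 for *Srxn1* (0.52 to 0.61) and 0.20 for *Prdx1* (0.71 to 0.81). Its bilirubin level was 508 CPM for *Txnrd1* (others 704 to 737), 269 CPM for *Srxn1* (421 to 448) and 1549 CPM for *Prdx1* (2413 to 2565).

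Among the further genes, the bilirubin level of mouse 1 was 10.3 CPM for *Mgst2* (others 18.8 to 20.4), 79.3 CPM for *Gsta3* (119.6 to 125) and 178 CPM for *Blvrb* (215 to 220.1). Its log2 change was 0.18 for *Txn1* (others 0.40 to 0.43), 0.0814 for *Akr1b8* (0.39 to 0.40) and 0.0726 for *Txnip* (-0.08 to -0.05). In mouse 3 the log2 change of *Ephx1* was 0.42 (others 0.29 to 0.30).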

How the results depend on the processing

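The number of members called was 6, and it was 5 without the mouse in the model (no replicate block) and 5 with DESeq2, 3 with a transcript length offset and 1 to 7 when 1 mouse was left out. Over all genes 1033 were called, against 686 without the replicate block, 1692 without a filter, 588 with the length offset and 377 to 1910 when 1 mouse was left out. In the further lists 25 were called, against 16 without the replicate block, 39 without a filter and 11 to 47 when 1 mouse was left out. Among the fits that left out 1 mouse, that without mouse 1 gave the highest of these counts and that without mouse 3 the lowest. The cause of these differences was not tested.

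When 1 mouse was left out, the log2 change ranged from -0.0116 to 0.0960 for *Keap1*, -0.18 to 0.0083 for *Gclc*, -0.0665 to 0.0784 for *Gclm* and -0.34 to 0.0769 for *Hmox1*, and each turned sign only in the fit without mouse 1 among the 13 alternatives. The mean log2 changes were -0.15 (*Keap1* to *Nfe2l2*), 0.73 (*Nqo1* to *G6pdx*), -0.22 (*Srxn1* to *Prdx1*) and 0.95 (*Slc7a11* to *Gclc*). Without the pairing by mouse, an exact permutation test over 8 libraries gave p = 0.0286 for each of these. This p is the smallest that the unpaired test allows and was not adjusted over the ratios. That test also treats the 2 cultures of a mouse as independent, which they are not. The paired sign-flip test, which follows the design, cannot reach such a p with 4 mice. Of 130 member values over the alternatives, 108 kept their direction and side of the threshold, 17 lost the call, 2 gained it and 3 turned sign. The 108 include values of members that were not called and stayed so. Among the called members, the call held in 13 of 13 alternatives for *Nqo1*, 12 for *G6pdx* and *Prdx1*, 9 for *Slc7a11*, 8 for *Nfe2l2* and 7 for *Srxn1*. Every member had enough counts to be tested, while 16 of the 134 further genes did not.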
